A study of Mus musculus with 8 samples.

Results

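Autophagy, the pathway that encloses cytoplasm in a double membrane and delivers it to lysosomes, was described through 50 genes of its core machinery and cargo receptors in the RNA of 8 mouse livers. The 50 genes were taken from a list of names, chosen with earlier results of these data known, and sorted by the step at which their products act. They were 50 of the 55385 genes in the count table, and all 50 passed the filter on low values that 14340 genes passed (a deposited FPKM that reached 0.5 in 4 or more mice). FPKM counts the read fragments of a gene per kilobase of exon, scaled to the size of its library.

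The livers came from 5-week-old male mice killed after a 16 h fast, all on the C57BL/6J background. The 4 Usp39-HKO livers carried a Usp39 gene whose exon 2 was flanked by loxP sites, together with a Cre recombinase driven by the Albumin promoter, which is active in hepatocytes. The 4 controls were littermates, labelled WT. Usp39 encodes a component of the spliceosome. The deletion was aimed at hepatocytes, and the state of the Usp39 gene in the other liver cells was not read here. RNA of the whole liver holds all of these cells. The label names the separate mice, so replicates were animals. Library totals ran from 8589636 to 10418450 counts, at which 3 counts, the limit of what a count of 0 allows, were worth 0.288 to 0.349 CPM (counts scaled to the library's size); these limits cover counting error only.

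In starved liver, autophagy supplies amino acids and lipids, and it clears mitochondria and protein aggregates. A kinase complex built around ULK1 starts the process. A lipid kinase complex built around PIK3C3 then marks the membrane with phosphatidylinositol 3-phosphate. ATG9 and ATG2 proteins supply lipids to the growing membrane, a pair of ubiquitin-like conjugation systems attaches ATG8 proteins (the LC3 and GABARAP families) to it, receptors such as SQSTM1 bring in the cargo, and SNARE proteins fuse the closed vesicle with the lysosome.

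Usp39 itself was read first, as a check of the labels. Its levels were 10.3, 11.3, 9.60 and 10.4 TMM-scaled FPKM in control replicates 1 to 4 and 8.27, 7.95, 8.18 and 6.80 in Usp39-HKO replicates 1 to 4 (log2 fold change -0.41 ± 0.11, adjusted p = 0.0212). All 4 Usp39-HKO livers lay under all 4 controls, at a mean of 0.75 times the control level. The count covers all 2445 exon bases of Usp39, while only exon 2 is flanked by loxP sites. RNA of the other exons can still be counted, so this value does not measure the extent of the deletion. The study measured the loss of Usp39 by immunoblotting and qPCR. The call was lost without Usp39-HKO replicate 4 (log2 fold change -0.35, adjusted p = 0.0615), without control replicate 4 (-0.41, adjusted p = 0.0547) and without TMM scaling (-0.18, adjusted p = 0.241). TMM-scaled FPKM is the FPKM after edgeR's trimmed mean of M-values (TMM) factors have set the libraries to a common scale. Here and below, each log2 fold change is Usp39-HKO over control with its standard error, from edgeR's quasi-likelihood test on the counts of 4 against 4 livers, and its adjusted p is Benjamini-Hochberg over all 14340 genes.

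Sequence upstream of Atg3 and Bnip3 is shown because both genes fell in the Usp39-HKO livers and their RefSeq promoter windows, which start near the annotated 5′ end of the gene, held an E-box, the letters CACGTG, to which TFEB and other basic helix-loop-helix factors bind. The stretches end just before the first annotated GENCODE exon base of the gene, are given 5′ to 3′ along the gene on GRCm38.p6, and carry the E-box in capitals. Atg3 encodes the E2-like enzyme of the ATG8 proteins (chr16:45158579-45158784, plus strand) and Bnip3 a receptor for mitochondria (chr7:138909520-138909756, minus strand).
Atg3: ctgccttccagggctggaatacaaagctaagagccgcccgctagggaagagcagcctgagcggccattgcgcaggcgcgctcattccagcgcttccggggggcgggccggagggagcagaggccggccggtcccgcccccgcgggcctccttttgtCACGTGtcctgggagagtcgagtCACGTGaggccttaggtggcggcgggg
Bnip3: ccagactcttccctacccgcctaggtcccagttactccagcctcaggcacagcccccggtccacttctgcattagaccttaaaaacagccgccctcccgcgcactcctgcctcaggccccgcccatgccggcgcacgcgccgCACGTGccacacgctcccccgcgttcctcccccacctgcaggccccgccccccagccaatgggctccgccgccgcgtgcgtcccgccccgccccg

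The Atg3 stretch held 2 E-boxes, 94 and 71 bases before the RefSeq start, and the Bnip3 stretch held 1, 108 bases before its RefSeq start. RefSeq windows from 250 bases before to 50 after the start were found for 40 of the 50 genes, 45 windows in all, and none was found for Nrbp2. CACGTG, which reads the same on both strands, was present in 7 of the 45 windows (15.6%), against 7.15% of the 32851 mouse windows of that length. The 7 genes were Atg3, Atg5, Atg7, Atg14, Bnip3, Nrbf2 and Rubcn, and 3 of them, Atg3, Atg7 and Bnip3, were called lower. For 8 of the 45 windows, among them those of Atg7, Atg14 and Rubcn, the RefSeq start lay more than 500 bases downstream of the GENCODE start of the gene. The Atg7 window began from such an internal start, 27999 bases into the gene, so its E-box is not placed at the 5′ end of Atg7. On both strands, TGACGTCA, the cAMP response element, was present in 2 windows (4.44% against 1.79%; Atg5 and Atg16l2), GAANNTTC, inverted units of the heat shock element, in 3 (6.67% against 7.86%; Optn, Vamp8 and Wdr45), and GTAAACA (forkhead, 3.65% of all windows) and TGANTCA (AP-1, 7.81%) in none. No match of one motif overlapped a match of another. The median window of the autophagy genes was also richer in G and C, at 60.0% against 52.7%, and these matches are descriptions of letters only.

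The core autophagy genes were lower in the Usp39-HKO livers more often than higher once the libraries were TMM-scaled. Of the 50 genes, 15 were called lower (30%) and 0 higher at an adjusted p under 0.05, against 11.6% of all genes tested called lower and 10.9% higher. The list was chosen with earlier results of these data known, so the gap between these shares was not tested. At an unadjusted p under 0.05, 22 were lower and 2 higher (18% and 17.4% of all genes), and DESeq2 called 16 lower and 1, Sqstm1, higher (12.4% and 11.9%). The log2 fold change was negative for 42 of the 50, with a median of -0.26, while the median over all 14340 genes was -0.0015. Of the 15 genes called lower, the log2 fold changes ran from -1.36 to -0.37, and they belonged to initiation (3 of 6), nucleation (2 of 8), lipid transfer (2 of 7), conjugation (4 of 16) and receptors (3 of 8), besides Nrbp2, which stands outside the steps. None of the 4 fusion genes was called. The groups did not overlap, with every Usp39-HKO liver under every control, for 18 of the 50, and lay the other way for 1, Sqstm1; over all genes the shares were 12.9% and 11.9%.

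These counts depended on how the libraries were scaled. TMM factors were 0.912 to 0.94 in the controls and 1.01 to 1.19 in the Usp39-HKO livers, so scaling by library totals alone raised each Usp39-HKO value relative to the controls. Without TMM, 4 of the 50 genes were called lower (Atg7, Atg16l2, Bnip3 and Nrbp2) and 5 higher (Atg14, Atg12, Wdr45b, Sqstm1 and Fundc1), against 4.9% and 24.5% of all genes. The median of the 50 was then -0.03, with 23 positive, and that of all genes was 0.23, with 10320 of 14340 positive. Leaving out TMM shifts every gene by nearly the same amount, so the 50 genes stayed about 0.26 below the median of all genes. All 15 genes called lower kept a negative fold change without TMM, having started at -0.37 or lower. Such a shift could hardly change either result, so neither is a separate check of the scaling. In the deposited FPKM, which carry no such factor, the groups did not overlap for 6 genes that were lower and 5 that were higher in the Usp39-HKO livers, against 4.81% and 23.9% of all genes. The 6 lower genes were Atg101, Atg7, Atg16l2, Optn, Bnip3 and Nrbp2, and the 5 higher were Atg14, Wdr45b, Atg4b, Sqstm1 and Bnip3l. Below, overlap between the groups for a single gene refers to TMM-scaled FPKM unless the deposited FPKM are named. By the cutoff that the study used, which asks for a log2 fold change beyond 0.5 in either direction and p under 0.05 without adjustment, 6 of the 50 were lower (Ulk2, Atg7, Atg10, Atg16l2, Bnip3 and Nrbp2; 9.62% of all genes) and 0 higher (12.1% of all genes; 2 of the 50 were higher at an unadjusted p under 0.05 with no limit on the fold).

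Lower levels were seen in each of the 4 livers. Relative to the mean of the controls, the median log2 level of the 50 genes was -0.20 in Usp39-HKO replicates 1 and 2, -0.24 in replicate 3 and -0.35 in replicate 4, and it ranged from -0.04 to 0.04 in the controls. The median over all genes ranged from -0.04 to 0.00 in the same 8 livers. Over the 15 genes called lower, Usp39-HKO replicate 2 held the highest of the 4 values for 8 and replicate 1 for 7, while the lowest was found in replicate 4 for 6 genes, in replicate 3 for 5 and in replicate 1 for 4.

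**Figure D1:**
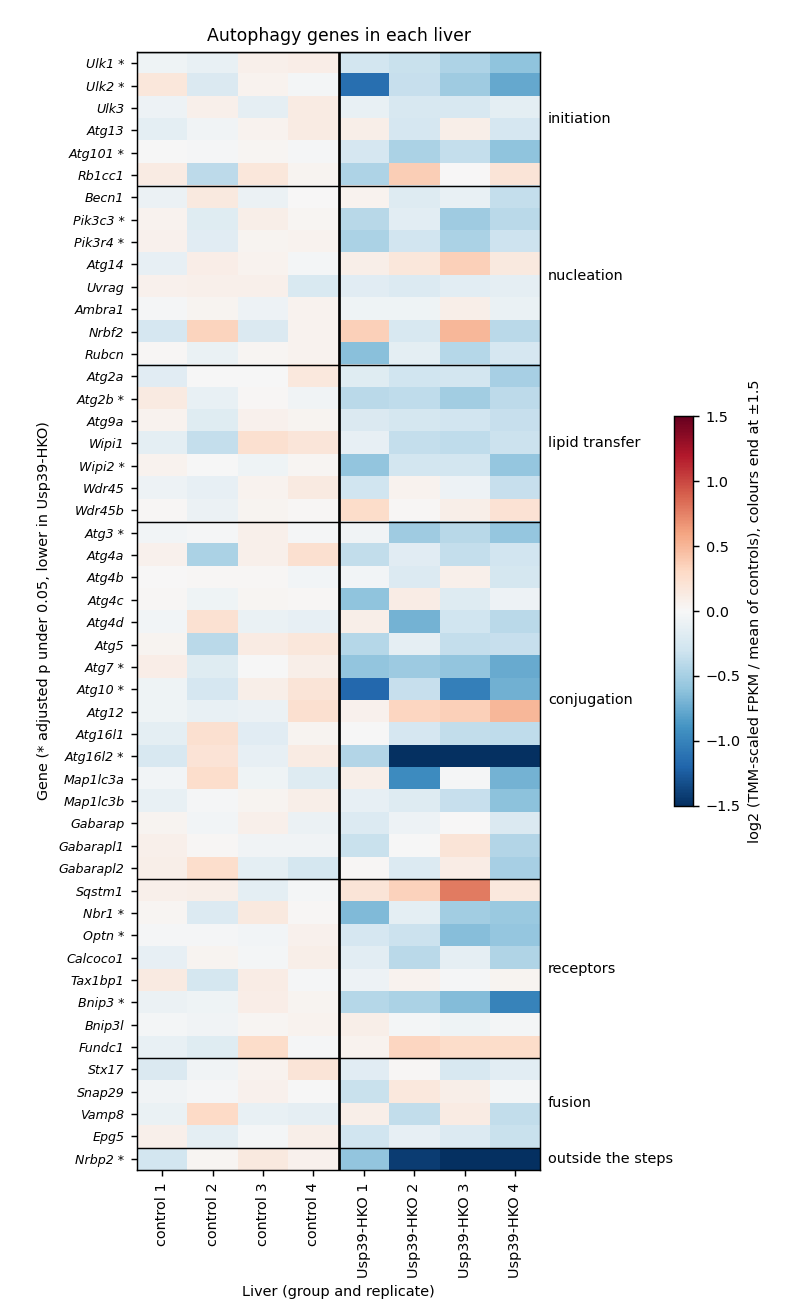
Level of each of the 50 autophagy genes in each liver, as log2 of the TMM-scaled FPKM over the mean of the 4 controls, with columns for the 8 livers and rows for the genes in order of their step; blue is lower and red higher, and colours end at 1.5 in either direction. A star marks the 15 genes called lower, and the Usp39-HKO columns are mostly blue, darkest for Atg16l2 and Nrbp2, while Sqstm1 is red in all 4.

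Cell type markers moved between the groups as well, and in bulk liver RNA fewer cells of a type and less RNA per cell cannot be told apart. Of 8 hepatocyte markers, 4 were called lower, and the sum of the 8 ran from 18100 to 20500 TMM-scaled FPKM in the controls and from 12600 to 19400 in the Usp39-HKO livers. Macrophage markers were called higher for 7 of 8 (sums 355 to 446 against 542 to 730), stellate cell and fibroblast markers for 6 of 8 (68.7 to 82.9 against 105 to 171), cholangiocyte markers for 4 of the 4 tested of 6 listed (29 to 31.1 against 63.4 to 241) and proliferation genes for 5 of 6 (12 to 17.8 against 28.9 to 41.3). Endothelial markers were called lower for 2 of 7 (114 to 124 against 96.8 to 110), erythroid markers for 3 of the 3 tested of 4 (322 to 682 against 120 to 286), and 1 of 5 leukocyte markers tested of 7 was higher (25.2 to 55.5 against 16.0 to 79). Acinar pancreas genes summed to 664 in control replicate 4 and to at most 4.83 in the other 7 livers, and 1 of the 8 was tested and not called. The part of these cells in the autophagy results was not tested.

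Of the 6 initiation genes, Ulk1, Ulk2 and Atg101 fell in the Usp39-HKO livers. Ulk1, whose kinase opens the pathway, was measured at 23.2, 22.4, 25.6 and 25.9 in control replicates 1 to 4 and at 20.1, 19.3, 17.6 and 16.1 in Usp39-HKO replicates 1 to 4 (log2 fold change -0.41 ± 0.10, adjusted p = 0.0171). Ulk2, its close paralog, stood at 16.1, 12.2, 14.7 and 13.9 and at 6.50, 11.2, 9.88 and 8.36 in the same order (log2 fold change -0.66 ± 0.16, adjusted p = 0.0119). For both kinases every Usp39-HKO liver lay under every control, and the lowest Ulk2 value was that of Usp39-HKO replicate 1. Atg101, a subunit that steadies ATG13 in the complex, was at 28.3, 28.1, 29.0 and 28.1 and at 23.7, 20.4, 22.1 and 18.6 (log2 fold change -0.42 ± 0.10, adjusted p = 0.0138), again with no overlap. The remaining initiation genes were not called: Ulk3, a related kinase, was at 2.87, 3.18, 2.76 and 3.29 in the controls and 2.81, 2.57, 2.56 and 2.74 in the Usp39-HKO livers (log2 fold change -0.18 ± 0.12, adjusted p = 0.326), and the groups overlapped. Atg13, the adaptor of the complex, had a log2 fold change of -0.07 and Rb1cc1, which encodes the FIP200 scaffold, one of 0.06. The summed level of the 3 ULK kinases was 41.6 ± 2.51 (SD, n = 4) in the controls and 29.9 ± 2.44 in the Usp39-HKO livers.

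The lipid kinase complex changed in its catalytic and regulatory subunits. Pik3r4 (VPS15), the regulatory subunit that holds the kinase in the complex, was at 4.73, 4.01, 4.66 and 4.69 in control replicates 1 to 4 and at 3.25, 3.71, 3.24 and 3.65 in Usp39-HKO replicates 1 to 4 (log2 fold change -0.39 ± 0.10, adjusted p = 0.0203), with no overlap. Pik3c3 (VPS34), the kinase, was at 7.70, 6.58, 7.88 and 7.59 and at 5.55, 6.68, 5.14 and 5.64 (log2 fold change -0.37 ± 0.12, adjusted p = 0.0391). Its groups overlapped by a narrow margin, since Usp39-HKO replicate 2 (6.68) lay above control replicate 2 (6.58). Rubcn, the Rubicon inhibitor of the UVRAG-containing complex, did not overlap between groups at 4.62, 4.27, 4.66 and 4.75 and 2.96, 4.15, 3.41 and 3.85, and missed the threshold (log2 fold change -0.35 ± 0.12, adjusted p = 0.0581). Becn1, the scaffold of both complexes, had a log2 fold change of -0.14 (43.9% of its exon bases also lie in Cntd1 on the opposite strand), Uvrag one of -0.17, Ambra1 one of -0.03, Nrbf2 one of 0.10 (96.9% of its longest transcript is shared with transcripts of other genes) and Atg14 one of 0.20. Of the exon bases of Uvrag, 17.6% lie opposite another gene. Atg14, which directs the complex to autophagosome formation, was called higher without TMM scaling (0.43, adjusted p = 0.0231).

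Among the 7 genes of the lipid transfer step, Wipi2 and Atg2b were called lower. Wipi2, which reads phosphatidylinositol 3-phosphate and recruits ATG16L1, stood at 14.4, 13.8, 13.3 and 14.1 in control replicates 1 to 4 and at 9.24, 11.5, 11.4 and 9.26 in Usp39-HKO replicates 1 to 4 (log2 fold change -0.42 ± 0.11, adjusted p = 0.0164). Atg2b, one of the paralogous bridges that carry lipids, stood at 5.66, 4.76, 5.21 and 4.99 and at 3.90, 3.97, 3.59 and 3.93 (log2 fold change -0.42 ± 0.09, adjusted p = 0.00845). In neither gene did the groups overlap. The other bridge, Atg2a, and the scramblase Atg9a did not overlap either and missed the threshold, at log2 fold changes of -0.31 (adjusted p = 0.0578) and -0.28 (adjusted p = 0.0557). Atg9a shares 31.8% of its exon bases with an overlapping gene on its own strand. Of the longest Wdr45 transcript, 50.9% is shared with an overlapping gene on its own strand. Wipi1 (-0.29), Wdr45 (-0.16) and Wdr45b (0.15) were not called, and Wdr45b was called higher without TMM (0.39, adjusted p = 0.0214).

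Conjugation held the largest fall of the 50 genes and the E1-like enzyme. Atg16l2 (ENSMUSG00000047767, chr7:101263034-101302251, minus strand), a paralog of the ATG16L1 scaffold, was at 4.68, 6.36, 5.06 and 5.99 in control replicates 1 to 4 and at 4.08, 1.68, 1.72 and 1.19 in Usp39-HKO replicates 1 to 4 (log2 fold change -1.36 ± 0.31, adjusted p = 0.0101). Usp39-HKO replicate 1 lay nearest to the controls and the other 3 lay well apart from them. Atg7 (ENSMUSG00000030314, chr6:114643097-114860614, plus strand), which encodes the E1-like enzyme of both conjugation systems, was at 9.92, 8.19, 9.23 and 9.85 and at 6.16, 6.37, 6.17 and 5.49 (log2 fold change -0.62 ± 0.10, adjusted p = 0.00209), where the 4 Usp39-HKO livers were close to each other and all under the controls. Its call was kept without TMM (-0.39, adjusted p = 0.0165). Atg10, the E2-like enzyme that joins ATG12 to ATG5, was at 3.34, 2.93, 3.71 and 3.98 and at 1.54, 2.74, 1.72 and 2.12 (log2 fold change -0.78 ± 0.22, adjusted p = 0.0274). Atg3 was at 22.8, 23.3, 24.8 and 23.3 and at 22.7, 16.2, 17.6 and 15.8 (log2 fold change -0.38 ± 0.12, adjusted p = 0.0411). The Atg3 groups were separated by a small gap only, since Usp39-HKO replicate 1 (22.7) came close to the lowest control (22.8).

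The partners in the ATG12 conjugate were not called. Atg5 was at 40.9, 30.1, 43.3 and 44.6 in control replicates 1 to 4 and at 29.5, 36.3, 31.1 and 31.3 in Usp39-HKO replicates 1 to 4 (log2 fold change -0.31 ± 0.13, adjusted p = 0.11), and the groups overlapped through control replicate 2. Atg12, the ubiquitin-like protein joined to ATG5, had means of 5.74 ± 0.688 in the controls and 7.16 ± 0.883 in the Usp39-HKO livers (log2 fold change 0.32 ± 0.12, adjusted p = 0.0817), and was called higher without TMM (0.56, adjusted p = 0.0154). The Atg12 groups overlapped through control replicate 4. Atg16l1, the scaffold of the E3-like complex, had a log2 fold change of -0.24. The 4 Atg4 proteases, which trim ATG8 proteins and release them from membranes, had log2 fold changes of -0.29 (Atg4a), -0.10 (Atg4b), -0.17 (Atg4c) and -0.30 (Atg4d), with none called. Of the longest Atg4a transcript, 96% is shared with transcripts of other genes at 97% identity or more, so reads could have been split between them, and 19.3% of the Atg4d exon bases lie opposite Kri1.

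None of the 5 ATG8 genes was called. Map1lc3b, which encodes LC3B, was at 28.1, 30.1, 31.2 and 32.2 in control replicates 1 to 4 and at 28.0, 26.6, 23.9 and 19.9 in Usp39-HKO replicates 1 to 4 (log2 fold change -0.31 ± 0.12, adjusted p = 0.0922). These groups did not overlap, though by a small gap. Gabarap (100.3 ± 5.07 in the controls and 92.2 ± 6.97 in the Usp39-HKO livers) and Gabarapl1 (108 ± 4.65 in the controls and 98.9 ± 20.2 in the Usp39-HKO livers) were the most abundant of the family in TMM-scaled FPKM, followed by Map1lc3a (52.7 ± 7.44 in the controls and 42.0 ± 14.2 in the Usp39-HKO livers), Map1lc3b and Gabarapl2 (24.5 ± 4.06 in the controls and 22.5 ± 4.08 in the Usp39-HKO livers). In the controls, Gabarapl1 and Gabarap, as well as Map1lc3b and Gabarapl2, were neighbours in this order whose ranges overlapped. The order depends on the exon length divided by, 7517 bases for Map1lc3b, 1844 for Gabarap and 1181 for Map1lc3a. Over all 8 livers, raw counts ran from 1682 to 2373 for Map1lc3b, 1530 to 1941 for Gabarap and 359 to 684 for Map1lc3a. The log2 fold changes of these 4 were -0.12 (Gabarap), -0.12 (Gabarapl1), -0.13 (Gabarapl2) and -0.33 (Map1lc3a). Of the Gabarapl1 exon bases 28.3% lie opposite another gene, and 20.9% of the longest Gabarapl2 transcript and 11% of that of Map1lc3b are shared with transcripts of other genes. The family summed to 315.5 ± 13.7 (SD, n = 4) in the controls and to 280.2 ± 37.3 in the Usp39-HKO livers, and the ranges of the sums overlapped.

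**Figure D2:**
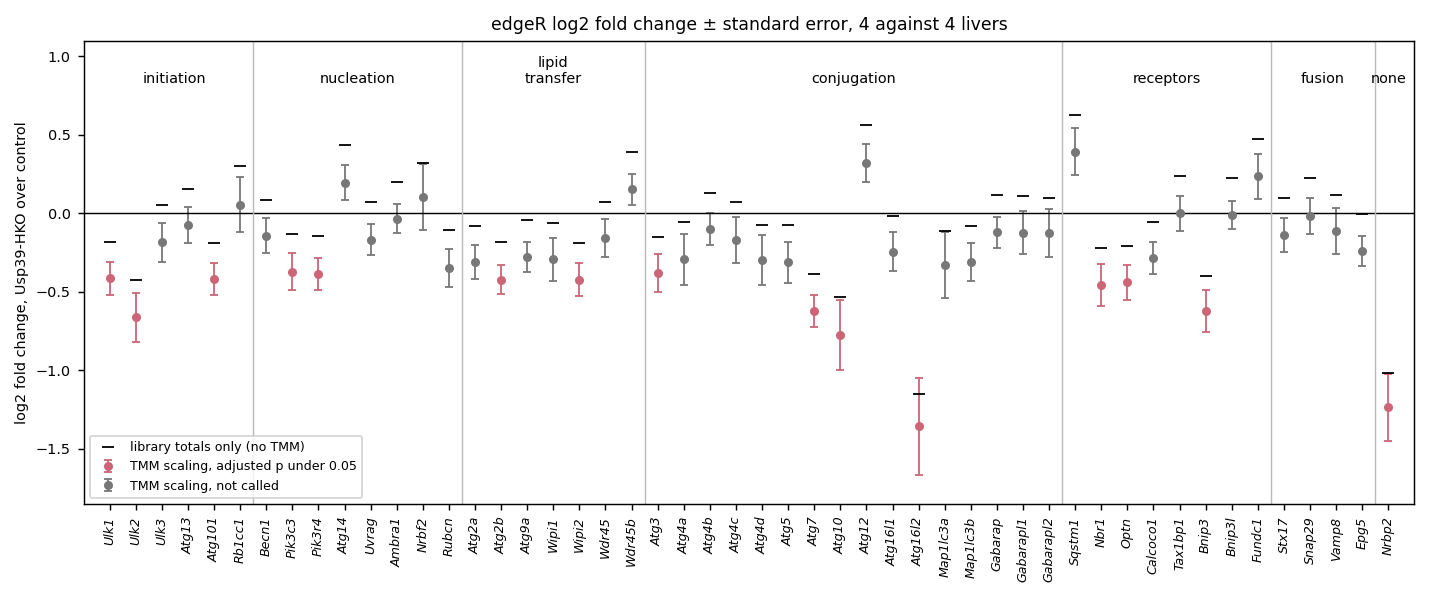
Log2 fold change of each of the 50 genes, Usp39-HKO over control, with its standard error (4 against 4 livers), in order of step; red points are the 15 genes called lower with TMM scaling, grey points were not called, and black dashes are the estimates without TMM. The dashes lie above the points throughout, and the median of the 50 moves from -0.26 to -0.03.

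Of the 8 cargo receptors, Nbr1, Optn and Bnip3 fell and none was called higher. Sqstm1 (ENSMUSG00000015837, chr11:50199366-50210827, minus strand), which encodes p62, the ubiquitin-binding receptor that is itself degraded by autophagy, was the most abundant of the 50 genes, at 166, 166, 141 and 154 in control replicates 1 to 4 and 179, 199, 270.0 and 174 in Usp39-HKO replicates 1 to 4. Every Usp39-HKO liver lay above every control, with replicate 3 highest. The gene missed the threshold with TMM (log2 fold change 0.39 ± 0.15, adjusted p = 0.0837) and passed it without TMM (0.62, adjusted p = 0.0083), in DESeq2, in edgeR without Usp39-HKO replicate 1 and in edgeR on genes with a mean FPKM of at least 5. Mrnip, on the opposite strand, covers 17.3% of its exon bases.

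Nbr1, a receptor of the same domain plan as p62, was at 56.5, 48.2, 61.1 and 56.0 and at 35.1, 50, 38.7 and 37.7 (log2 fold change -0.46 ± 0.13, adjusted p = 0.0306), with an overlap between Usp39-HKO replicate 2 and control replicate 2. Optn, or optineurin, a receptor for bacteria and damaged mitochondria, was at 51.2, 51.1, 50.2 and 54.0 and at 43.3, 41.4, 33.0 and 34.5 (log2 fold change -0.44 ± 0.11, adjusted p = 0.0167), with none. Bnip3 (ENSMUSG00000078566, chr7:138890836-138909519, minus strand) was at 109, 111, 124 and 120.0 and at 86.5, 83.6, 73.9 and 58.0 (log2 fold change -0.62 ± 0.13, adjusted p = 0.0074). All 4 Usp39-HKO livers lay under the controls, and replicate 4 was lowest. For Bnip3, 94.2% of the longest transcript is shared with transcripts of other genes and 22.3% of exon bases lie opposite another gene, so its reads could have been divided or added to. Calcoco1, a receptor of the endoplasmic reticulum and Golgi, had no overlap and missed the threshold (log2 fold change -0.28 ± 0.10, adjusted p = 0.0711). Of the longest Bnip3l transcript, 34.7% is shared with Bnip3l-ps. Tax1bp1 (0.00), the mitophagy receptor Bnip3l (-0.01) and Fundc1 (0.24) were not called, and Fundc1 was called higher without TMM (0.48, adjusted p = 0.0425).

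None of the genes of the fusion step was called. Epg5, a tether between autophagosome and lysosome, differed most of the 4, at 5.70, 4.90, 5.32 and 5.74 in control replicates 1 to 4 and at 4.38, 4.96, 4.69 and 4.30 in Usp39-HKO replicates 1 to 4 (log2 fold change -0.24 ± 0.10, adjusted p = 0.0977). Usp39-HKO replicate 2 exceeded control replicate 2 and the other values did not cross. The SNARE genes Stx17, Snap29 and Vamp8 had log2 fold changes of -0.14, -0.02 and -0.11. Without TMM, 3 of the 4 fusion genes had positive fold changes and none was called.

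Nrbp2 (ENSMUSG00000075590, chr15:76085518-76091627, minus strand) is a pseudokinase gene with no place among the steps. It was part of the list because the study examined it among autophagy-related genes with altered splicing, which a count per gene does not read. Its levels were 18.4, 22.6, 24.6 and 23.3 in control replicates 1 to 4 and 14.8, 8.27, 6.91 and 7.81 in Usp39-HKO replicates 1 to 4 (log2 fold change -1.24 ± 0.21, adjusted p = 0.00287). The 4 Usp39-HKO livers lay under the controls, with replicate 1 nearest to them. Without TMM the estimate was -1.01 (adjusted p = 0.0034).

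Leaving out single livers changed the number of genes called lower. The number of the 50 called lower was 10 without control replicate 1 (7.91% of all genes in the same fit), 18 without control replicate 2 (11.6%), 9 without control replicate 3 (6.62%) and 8 without control replicate 4 (7.13%). It was 13 without Usp39-HKO replicate 1 (11.6%), 15 without replicate 2 (11.1%), 10 without replicate 3 (8.4%) and 11 without replicate 4 (7.41%). The share of all genes called also fell where fewer of the 50 were called. Without Usp39-HKO replicate 1, 2 of the 50, Atg12 and Sqstm1, were called higher (12.9% of all genes). All 15 genes called lower kept a negative fold change in each of the 8 fits. This was close to assured, since they were called on these same livers and most did not overlap between the groups. Ulk2, Atg101, Atg2b, Wipi2, Atg7, Atg16l2, Bnip3 and Nrbp2 were called in all 8. Optn lost its call without control replicate 4 only, and Ulk1 without control replicates 3 or 4. Pik3r4 lost it without any of control replicates 1, 3 and 4 and Usp39-HKO replicate 3. Pik3c3, Atg10 and Nbr1 kept it only without control replicate 2 or without Usp39-HKO replicate 2, and Atg3 only without Usp39-HKO replicate 1.

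Shares of a family within a library do not depend on scaling between libraries, so paralogs were compared in this way, with no test. In 8 families with 28 genes, 9 shares did not overlap between the groups. Shares of a family are tied to each other, so those of Atg16l1 and Atg16l2 are the same contrast. No such count was made over other families. For single genes in TMM-scaled FPKM, 12.9% of all genes lay lower and 11.9% higher without overlap. In FPKM, ATG16L1 and ATG16L2 transcripts were near balance in the controls, where Atg16l2 took 45%, 46.1%, 47.5% and 48.1% of the pair in replicates 1 to 4. It took 39.4%, 24%, 26.0% and 19.7% in the Usp39-HKO livers. Atg16l1 thus took 53.3 ± 1.38% of the pair in the controls and 72.7 ± 8.52% in the Usp39-HKO livers (SD, n = 4), while its own level was not called. Usp39-HKO replicate 1, at 60.6%, was nearest to the controls.

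Within the 5 ubiquitin-binding receptors, the share of Sqstm1 was 52.9%, 55.5%, 48.3% and 50.8% in the controls and 61.2%, 61.0%, 71.4% and 61.9% in the Usp39-HKO livers. The gain stood against smaller shares of Nbr1 (18.4 ± 1.98% in the controls and 12.7 ± 2.16% in the Usp39-HKO livers) and Optn (17.1 ± 0.619% in the controls and 12.1 ± 2.51% in the Usp39-HKO livers). Those of Calcoco1 and Tax1bp1 overlapped between groups. Within the mitophagy receptors, Bnip3 took 73.4 ± 0.498% in the controls and 63.5 ± 3.88% in the Usp39-HKO livers, Bnip3l 23.8 ± 0.701% in the controls and 31.9 ± 3.27% in the Usp39-HKO livers and Fundc1 2.86 ± 0.271% in the controls and 4.58 ± 0.775% in the Usp39-HKO livers. These 3 shares did not overlap, and the summed level of the 3 genes was 158.3 ± 8.99 in the controls and 118.3 ± 13.7 in the Usp39-HKO livers. The shares and ratios of Bnip3 and Bnip3l carry the limits on their shared sequence given above. Wdr45b took 18.1 ± 0.893% in the controls and 23.2 ± 2.48% in the Usp39-HKO livers of the WIPI family. For the ULK kinases and for the ATG2, ATG4 and ATG8 proteins every share overlapped between the groups.

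**Figure D3:**
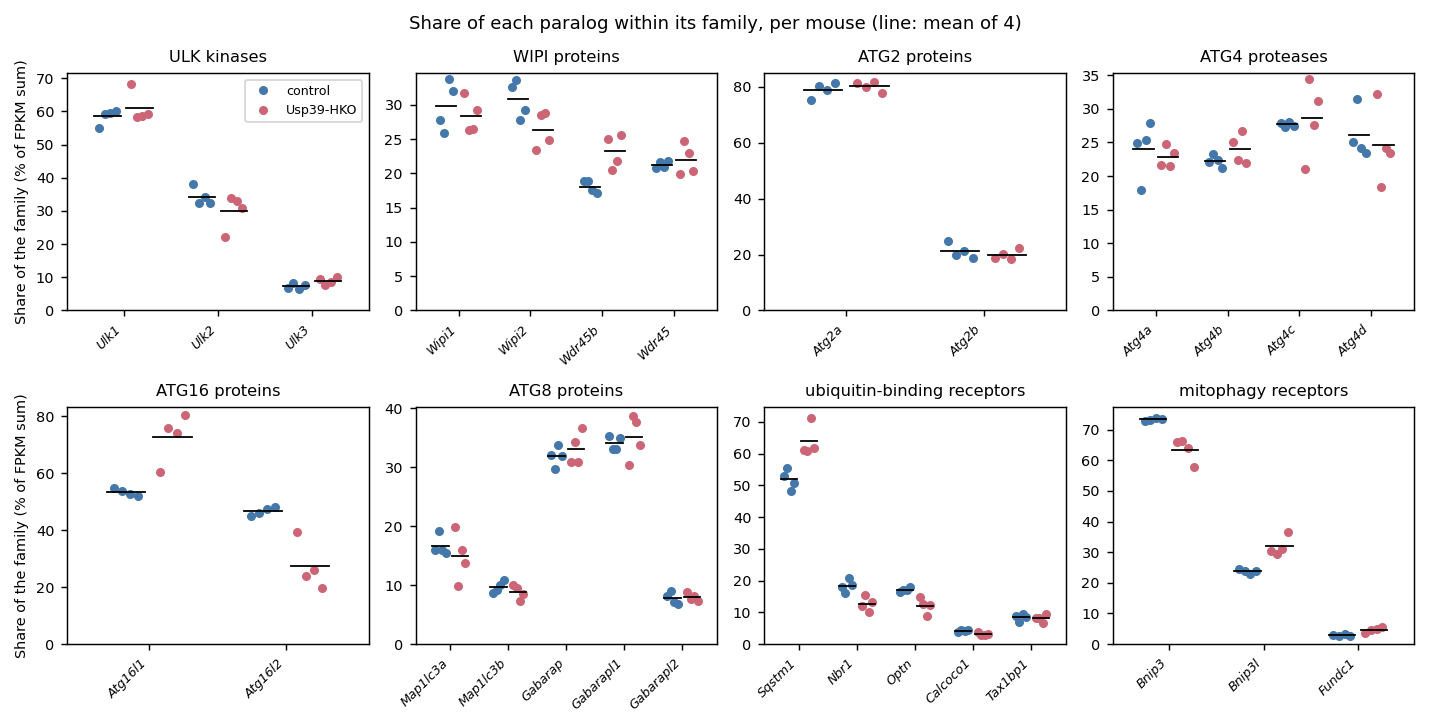
Share of each gene in the summed FPKM of its family, in percent, for 8 families; each point is a liver, blue for control and red for Usp39-HKO, and lines are means of 4. The red and blue points of Atg16l1, Atg16l2, Sqstm1, Nbr1, Optn, Bnip3, Bnip3l, Fundc1 and Wdr45b do not overlap, while those of the ATG8 proteins do.

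Ratios between pairs of genes were read in the same way. Of 10 pairs, 5 did not overlap between groups, and no such count was made over pairs of other genes. The log2 ratio of Sqstm1 to Map1lc3b was 2.56, 2.46, 2.18 and 2.25 in control replicates 1 to 4 and 2.68, 2.90, 3.50 and 3.13 in Usp39-HKO replicates 1 to 4, a shift of 0.69 that took the ratio from 5.15 to 8.30. Sqstm1 against Nbr1 shifted by 0.84, from a ratio of 2.83 to 5.06. In each of these pairs all 4 Usp39-HKO livers lay above the controls. The log2 ratio of Atg12 to its conjugation partner Atg5 was -2.90, -2.50, -3.00 and -2.72 in the controls and -2.30, -2.34, -2.08 and -1.95 in the Usp39-HKO livers, again without overlap, and that of Atg14 to Uvrag, which mark the alternative forms of the lipid kinase complex, shifted by 0.36. Bnip3 against Bnip3l shifted the other way by -0.63, from a ratio of 3.09 to 2.0. Rubcn to Uvrag, Atg7 to Atg3, Map1lc3a to Map1lc3b, Gabarapl1 to Gabarap and Ulk1 to Ulk2 overlapped between groups, with shifts between -0.22 and 0.27.

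**Figure D4:**
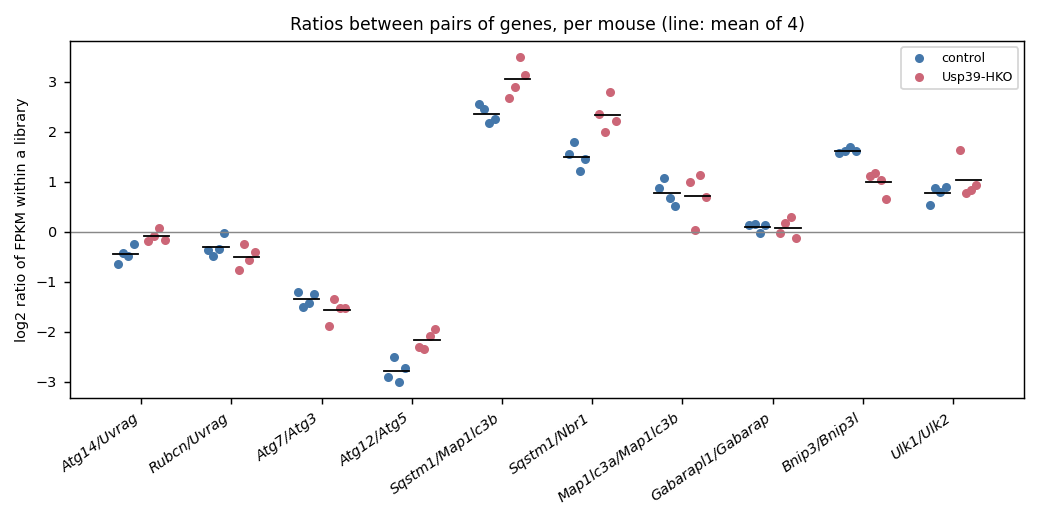
Log2 ratio of the FPKM of 10 pairs of genes within each library; points are livers, blue for control and red for Usp39-HKO, and lines are means of 4. Sqstm1 to Map1lc3b and Sqstm1 to Nbr1 lie higher in all 4 Usp39-HKO livers, Bnip3 to Bnip3l lies lower, and Gabarapl1 to Gabarap stays near 0 in both groups.

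Genes of the pathway outside the 50 were read from a second list. Of 57 listed, 52 passed the filter, and 2 of them were called higher and 8 lower, against 10.9% and 11.6% of all genes, with a median log2 fold change of -0.10. Without TMM the count was 9 higher and 2 lower, against 24.5% and 4.9% of all genes. Leaving out control replicates 1, 3 or 4 or Usp39-HKO replicates 3 or 4 brought the number lower to 4 or 5. The share of all genes called lower also fell in those fits, to between 6.62% and 8.4%.

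Among 16 regulators, 1 was higher and 3 were lower. Bcl2, whose product binds beclin 1 and restrains it, was at 0.326, 0.466, 0.334 and 0.335 TMM-scaled FPKM in control replicates 1 to 4 and 0.588, 0.79, 0.764 and 1.05 in Usp39-HKO replicates 1 to 4 (log2 fold change 1.12 ± 0.23, adjusted p = 0.00565), higher in each Usp39-HKO liver, though the control values were low. Trp53inp2, a cofactor of autophagosome formation, fell from 83, 86.1, 76.2 and 81.7 to 50.3, 51.9, 60.2 and 42.9 (log2 fold change -0.67 ± 0.12, adjusted p = 0.00348). Tfeb, the transcription factor of lysosomal and autophagy genes, fell as well (2.12 ± 0.211 in the controls and 1.56 ± 0.0843 in the Usp39-HKO livers; log2 fold change -0.44 ± 0.14, adjusted p = 0.0381), as did the kinase gene Dapk1 (log2 fold change -0.34 ± 0.10, adjusted p = 0.0272). Hsf1, the heat shock transcription factor, was at 2.37, 2.77, 2.37 and 2.10 and at 2.55, 2.50, 2.62 and 2.58, and was not called (log2 fold change 0.09 ± 0.12, adjusted p = 0.611). The Hsf1 groups overlapped on this scale, and the Usp39-HKO livers were close to each other. In the deposited FPKM, which carry no TMM factor, the Hsf1 groups did not overlap (means 2.215 in the controls and 2.785 in the Usp39-HKO livers). On that scale the groups of Tfeb and of Dapk1 overlapped, while those of Bcl2 and Trp53inp2 did not. The study measured a full-length Hsf1 isoform and an isoform open to nonsense-mediated decay apart, which a count per gene cannot do. By qPCR, it also reported less Hsf1 mRNA in Usp39-HKO livers of the same age and fast, and by immunoblotting less Hsf1 protein in fasted livers. The counts read here show no such fall in Hsf1 RNA, and the reason was not tested.

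Of 10 membrane and phosphoinositide factors tested, 2 were lower: Zfyve1, which encodes the omegasome marker DFCP1 (log2 fold change -0.45 ± 0.10, adjusted p = 0.00945), and the phosphatase gene Mtmr14 (log2 fold change -0.36 ± 0.11, adjusted p = 0.0385). Of 14 further selective receptors tested, Nipsnap2 was higher (9.30 ± 1.17 in the controls and 13.6 ± 1.79 in the Usp39-HKO livers; log2 fold change 0.54 ± 0.13, adjusted p = 0.0134) and Nipsnap1, its paralog on mitochondria, was lower (88.6 ± 8.85 in the controls and 62.5 ± 3.35 in the Usp39-HKO livers; log2 fold change -0.50 ± 0.11, adjusted p = 0.00706). Neither pair of groups overlapped in TMM-scaled FPKM, while in the deposited FPKM the Nipsnap1 groups overlapped and the Nipsnap2 groups did not. Pnpla8, a phospholipase gene on that list, was also lower (log2 fold change -0.38 ± 0.13, adjusted p = 0.049). Of 12 tethering and fusion genes tested, 1 was lower, Tgfbrap1, a subunit of an endosomal tethering complex (log2 fold change -0.56 ± 0.12, adjusted p = 0.00658).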

How the data were processed

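RNA of 8 mouse livers, 4 Usp39-HKO and 4 control, was sequenced. The counts per gene and the FPKM were made by the authors: per the labels and the methods, reads were trimmed (Trim Galore 0.6.1), checked (FastQC 0.11.9), aligned to mm10 with HISAT2 and counted with featureCounts. The annotation release, strand setting and treatment of reads with several matches are not given in the sources used here, so reads of genes that overlap on opposite strands cannot be told apart. The deposited exon length equalled the merged exon length of GENCODE vM21 for 50 of 50 autophagy genes. Columns that hold the authors' own fold changes and p-values were not used.

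Rows of repeated gene IDs were counted once (55699 rows, 55385 IDs). Genes with a deposited FPKM of at least 0.5 in at least 4 mice were tested with edgeR 4.0.16 (R 4.3.3), TMM scaling and the quasi-likelihood test, with Benjamini-Hochberg adjustment over 14340 genes, and called at an adjusted p under 0.05; the procedure was first tested on simulated data. Levels are counts per kilobase of exon scaled to the TMM-adjusted library size (TMM-scaled FPKM). Precision was limited by totals of 8589636 to 10418450 counts. Alternatives were DESeq2 1.42.0, limma 3.58.1 on log2(FPKM + 1), other scalings and filters, the study's cutoff, and leaving out each mouse. Shared sequence was sought with BLAST+ 2.17.0+ (at least 150 bases at 97% identity). Promoter windows came from RefSeq (GRCm38.p6), and motifs were matched by letters.

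Groups were taken from the labels, and replicates were numbered in the order of the samples. The autophagy genes, the further pathway genes and the marker lists were chosen with earlier results of these data known. Values of each mouse are given for genes called, for the gene with the largest fold change in each step and for Ulk1, Ulk3, Atg3, Atg5, Atg7, Map1lc3b, Sqstm1 and Nrbp2; Rubcn and the further genes shown by mouse were chosen after their values were seen. Of the further pathway genes, those called (at most 4 a list) and Hsf1 are named.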

Additional observations from a re-analysis of the deposited data

Results flagged for a closer look

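In 6 of 102 groups of 4 livers (each gene and Usp39 in each genotype) the highest or lowest TMM-scaled FPKM stood apart from the other 3 by Dixon's criterion, which about 1 in 20 groups would meet by chance. All 6 were controls. Control replicate 2 was low for Pik3r4 (4.01, others 4.66 to 4.73), Atg9a (8.40, others 9.85 to 9.98) and Atg4c (5.58, others 5.88 to 5.94) and high for Vamp8 (53.9, others 39.7 to 40.8). Control replicate 4 was low for Uvrag (4.81, others 5.91 to 5.95) and high for Atg12 (6.77, others 5.30 to 5.48).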

How the results depend on the processing

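No paired analysis was possible because the labels give no replicate numbers that link control and Usp39-HKO mice. With edgeR on library totals (no TMM), 5 autophagy genes were called higher and 4 lower, the median was -0.028, the further pathway genes gave 9 higher and 2 lower, and Usp39 was at -0.18 (adjusted p = 0.241). With limma on log2(FPKM + 1), which has no TMM factor either, the values were 5, 4, -0.02, 5 and 1, in the same order, and -0.16 for Usp39 (adjusted p = 0.19). With a mean FPKM of at least 5, fewer genes were tested (38 of the 50), 2 were higher and 8 lower, the median was -0.13 and 4 further pathway genes were lower. DESeq2 called 1 of the 50 higher, and the study's cutoff 6 lower. Leaving out 1 liver gave 0 to 2 higher, 8 to 18 lower, 4 to 10 further pathway genes lower and a Usp39 log2 fold change of -0.45 to -0.35. Median-ratio size factors and no filter on low values each gave 15 lower and 0 higher. The 15 genes called lower, the 10 further pathway genes called and Usp39 kept their direction in every one of these fits that held them. As they were called on these same livers, a kept direction is a weak check. The share of all genes called was not counted for limma, the filter at a mean FPKM of 5, median-ratio size factors or no filter. The numbers of genes called in those fits therefore stand without that comparison. The depth limits the least expressed genes, whose lowest count was 26.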
